A study of Mus musculus with 6 samples.

Results

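The potassium channel genes were the 94 protein-coding mouse genes whose symbol starts with Kcn followed by a lower-case letter, taken by name from 38355 genes with deposited counts. They encode pore-forming and auxiliary subunits of potassium channels and fall into 21 subfamilies by symbol. Of the 94 genes, 80 had enough counts to be tested for a difference between ages and 14 had not. The rule rests on gene symbols, and the set was taken up with earlier results of these data known. Kcnc1, Kcnc2 and Kcns3, which are prominent in fast-spiking interneurons that express parvalbumin (PV), were treated apart.

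RNA was sequenced from whole cortical hemispheres of C57BL/6 mice aged 6 months or 16 months, with 3 samples per age, each from a separate brain per the study, to ask which cortical genes differ with age. The mice carried no transgene or treatment in the labels, so the ages were the only groups. The note on housing gives 3 months in place of 6 months for the younger mice, and the age in the sample labels was used here. Since tissue was not sorted, fewer cells of a type and less RNA per cell cannot be told apart.

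Potassium channels let potassium leave or enter the cell along its gradient and thereby set the resting potential, end the action potential and limit repetitive firing. Voltage-gated channels are tetramers that open on depolarisation, inward rectifiers and 2-pore-domain channels act near rest, and a further group opens on calcium or sodium inside the cell. In the cortex, PV interneurons depend on fast voltage-gated channels of the Kcnc subfamily for narrow spikes, whereas astrocytes use the inward rectifier Kcnj10 to take up extracellular potassium.

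What most pore-forming members share in sequence is the selectivity filter, the short loop that lets potassium pass and holds sodium back. Its codons are shown for the fast-spiking channels, for Kcnc4 as another gene of the Kcnc subfamily, and for Kcng1, Kcnf1 and Kcnj10, to which the comparisons below return. The sequences are the coding strand of the GRCm38 reference with GENCODE M21 annotation, each is 30 bases of coding exon, and capitals mark the filter codons.
Kcnc1: atgacgACACTGGGCTATGGAgacatgtat
Kcnc2: atgactACCTTAGGTTACGGGgatatgtac
Kcnc4: atgacaACGCTTGGCTATGGGgacatgtat
Kcns3: atgaccACAGTGGGCTATGGAgacacccac
Kcng1: atgacaACCGTAGGCTACGGAgacatggta
Kcnf1: atgaccACAGTGGGCTATGGTgacatctac
Kcnj10: cagaccACCATCGGCTATGGCttccgctac

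The Kcnc1 stretch lies at chr7:46427967-46427996 on the plus strand in exon 2 of 4, and the Kcnc4 stretch at chr3:107447790-107447819 on the minus strand in exon 2 of 4. Kcnc2 was read from chr10:112456223-112456252 on the plus strand in exon 3 of 5. Kcns3 was read from chr12:11091566-11091595 on the minus strand in exon 3 of 3. The Kcng1 stretch is chr2:168262632-168262661 on the minus strand in exon 3 of 3, the Kcnf1 stretch chr12:17175052-17175081 on the minus strand in a single exon, and the Kcnj10 stretch chr1:172369296-172369325 on the plus strand in exon 2 of 2. A search in frame on the coding strand of the longest coding sequence found ACNGTNGGNTANGGN in 23 of 94 members (24.5%) and in 2 of 21079 other genes (0.00949%). The wider pattern ACNNTNGGNTNNGGN, which contains the first, was present in 64 of 94 members (68.1%) and in 0.574% of other genes. It occurred more than once in 11 members, all of them 2-pore-domain channels, whose subunits carry a pair of pore loops. It was not found in any member of Kcnab, Kcne, Kcnip, Kcnmb or Kcnrg, the auxiliary and regulatory subfamilies. Only 1 of 8 Kcnh genes, whose filters differ in sequence, held it. It was also found in 1 of 4 Kcnn, 14 of 15 Kcnj and 12 of 14 Kcnk genes.

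The 6 samples held 29797253 to 46519280 counts and the spread between samples of one age was small (biological coefficient of variation 6.40%). The 16-month replicates 1 and 2 stood apart from the other samples: across genes, their deviation from the mean correlated with the GC content of the transcript with r = 0.588 and r = −0.582, against −0.13 to 0.16 in the other 4 samples. For the 80 tested potassium channel genes, the log2 ratio of 16-month replicate 1 to replicate 2 was larger at higher GC content, with Pearson's r = 0.815 and Spearman's rho = 0.820 across genes, which share the libraries and are not independent. The same ratio between 6-month replicates 1 and 2 gave r = 0.175. In the 40 members of higher GC content (52.2% to 69.4%), replicate 1 exceeded replicate 2 at 16 months in 36, with a median log2 ratio of 0.30. In the 40 members of lower GC content it did so in 14, with a median of −0.061. The median SD of the members' log2 level was 0.0585 at 6 months and 0.133 at 16 months. After removal of the trend with GC content and length in each sample (GC and length offsets), these SDs were 0.0577 and 0.0648. Age differences are given below first without offsets and then, where it matters, with them.

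**Figure D1:**
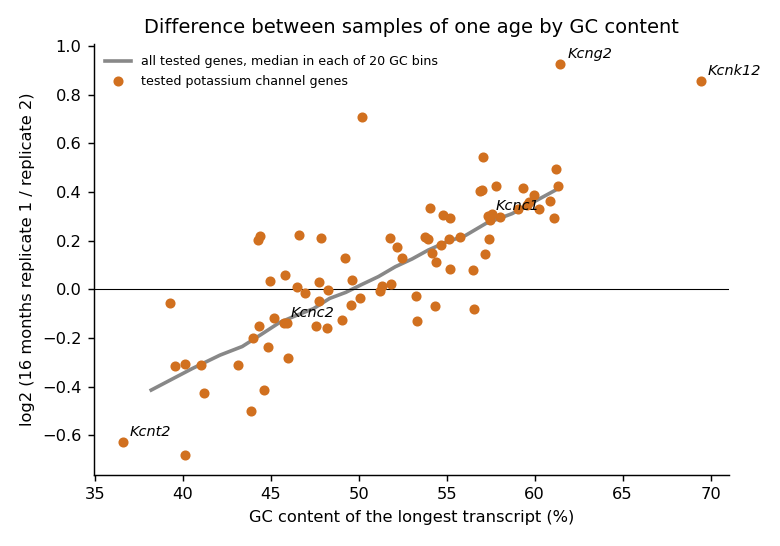
The log2 ratio of the 16-month replicates 1 and 2 is plotted against transcript GC content (%) for the 80 tested potassium channel genes (points), with the median of all tested genes in 20 GC bins (line). Points rise from left to right along the line (r = 0.815), so members rich in GC, such as Kcnk12, lie above 0 and members poor in GC, such as Kcnt2, lie below it.

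No potassium channel gene passed the test between the ages. By the quasi-likelihood test of edgeR, with p-values of all 17120 genes tested adjusted after Benjamini-Hochberg, 0 of 80 members had an adjusted p under 0.05, where the background was 1.67% of all genes (286 genes, 0.783% higher and 0.888% lower). At an unadjusted p under 0.05, 18 members were higher and 4 lower at 16 months, or 22 of 80, where 17.4% of all genes lay under that limit (8.57% higher and 8.88% lower). DESeq2's Wald test called 2 of 93 members, Kcnf1 and Kcng1, both higher, beside 1.71% of all genes. The smallest adjusted p among the members by edgeR's test were 0.0755 for Kcnj6 and 0.0766 for Kcng1.

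The fold changes of the members were small and mostly above 0. The log2 fold change of 16 over 6 months was positive in 59 of 80 members, against 50.3% of all genes tested, and its median was 0.085 against 0.0014 for all genes. In 22 members (27.5%) all 3 samples at 16 months exceeded all 3 at 6 months, where the background was 12.2%, and in 2 members (2.5%), Kcnmb1 among them, all 3 lay below, where the background was 11.5%. Without 16-month replicate 1 these counts were 26 and 6 (backgrounds 19.1% and 18.8%), and without replicate 2 they were 36 and 7 (backgrounds 22.6% and 22.8%). The median half-width of the 95% interval of a member's log2 fold change was 0.177, so differences under that size were not resolved for the median member.

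**Figure D2:**
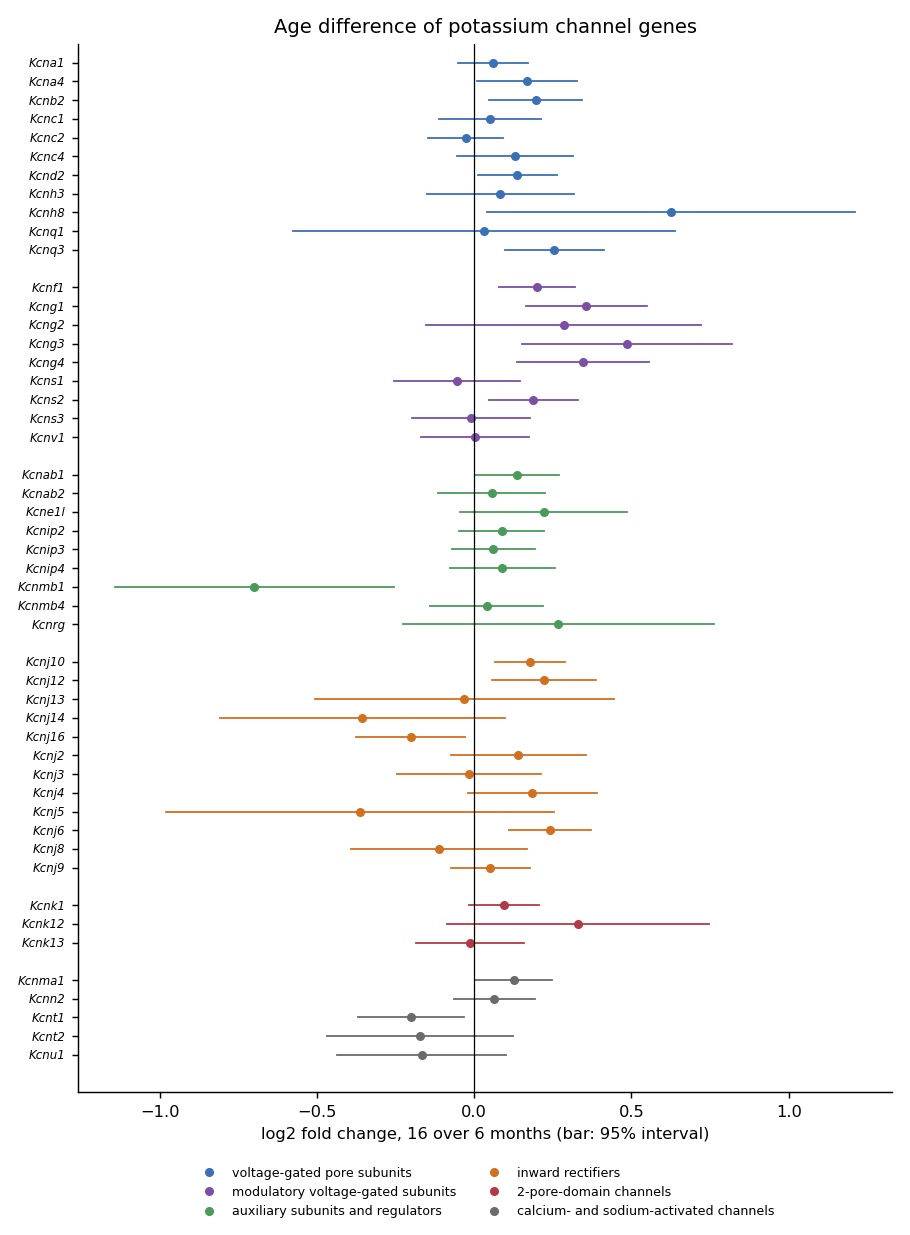
The log2 fold change of 16 over 6 months (x axis; point) with its 95% interval (bar) is shown for the 49 tested potassium channel genes named in the text, coloured by class. Most points lie right of 0 (35 of 49), the widest intervals belong to genes of low count such as Kcnq1 and Kcnh8, and no member passed the adjusted threshold.

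With the GC and length offsets, 20 of 80 members passed edgeR's quasi-likelihood test after Benjamini-Hochberg adjustment, where 14.2% of all genes did (7.37% higher and 6.83% lower). The 16 that rose at 16 months were Kcna4, Kcnab1, Kcnb2, Kcnd2, Kcnf1, Kcng1, Kcng3, Kcng4, Kcnip4, Kcnj10, Kcnj12, Kcnj2, Kcnj4, Kcnj6, Kcnq3 and Kcns2. Among those that fell were Kcnj16, Kcnmb1 and Kcnt1. The members' median log2 fold change with offsets was 0.057, against 0.0011 for all genes. Since 16-month replicates 1 and 2 tilt in opposite directions, the fit that uses no offsets was also repeated with these samples left out. Without replicate 1, 9 members passed beside 5.73% of all genes, and without replicate 2, 10 members beside 12.7%. Without both, a fit with 1 sample at 16 months, 10 members passed, beside 9.85% of all genes. Of the 20 genes, Kcnf1, Kcng1, Kcng3, Kcnj10, Kcnj4, Kcnj6 and Kcnq3 were among these last 10 and higher, and Kcnj16 and Kcnt1 were among them and lower.

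**Figure D3:**
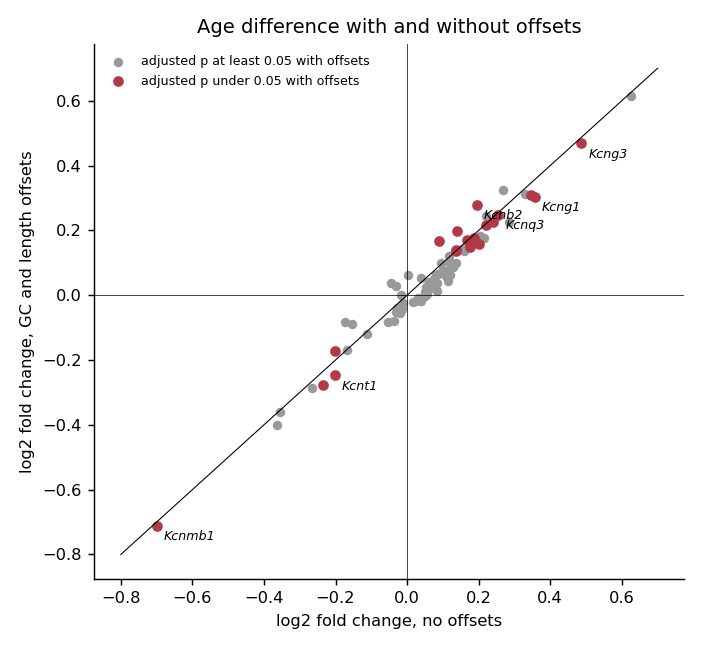
Each point is a tested potassium channel gene, with its log2 fold change of 16 over 6 months without offsets on the x axis and with GC and length offsets on the y axis; the diagonal marks equal values and red marks an adjusted p under 0.05 with offsets. The points stay close to the diagonal, and the 20 red points include Kcng1 and Kcng3 at the upper right and Kcnmb1 and Kcnt1 at the lower left.

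The fast-spiking channels were at nearly the same level in both ages, in samples in which the Pvalb transcript was clearly lower at 16 months. Kcnc1, whose channel closes fast enough for firing at high rates, measured 220.9, 211.0 and 213.1 counts per 1000000 counts (CPM, scaled by TMM) at 6 months and 245.6, 199.0 and 223.1 CPM at 16 months. The 16-month samples lay on both sides of the 6-month samples, with replicate 1 highest and replicate 2 lowest. The younger samples averaged 215 ± 5.24 CPM and the older ones 223 ± 23.3 CPM (SD, n = 3 each). Its log2 fold change was 0.050 with an adjusted p of 0.773 by edgeR's test, and −0.0024 with the offsets.

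Kcnc2, the second fast delayed rectifier of these cells, measured 158.4, 157.4 and 160.2 CPM at 6 months and 147.0, 161.8 and 158.4 CPM at 16 months. The ages overlapped, and only 16-month replicate 1 lay below the 6-month samples. The log2 difference was −0.027, with an edgeR adjusted p of 0.836. Kcns3, a silent subunit that modifies the Kcnb channels of PV cells, measured 9.98, 9.37 and 10.4 CPM at 6 months and 8.99, 9.99 and 10.7 CPM at 16 months. Its samples overlapped as well, and its log2 fold change was −0.011 with an edgeR adjusted p of 0.961. The exact two-sided permutation p over samples was 0.7 for Kcnc1, 0.8 for Kcnc2 and 1 for Kcns3, where the smallest p that 3 against 3 samples allow is 0.1.

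The 95% intervals of the log2 fold change ran from −0.11 to 0.21 for Kcnc1, which is −7.57% to 15.9%, from −0.15 to 0.093 for Kcnc2, which is −9.67% to 6.64%, and from −0.20 to 0.18 for Kcns3. Changes within these bounds remain compatible with these samples. The sign of all 3 small differences depended on single samples: without 16-month replicate 1 the log2 fold changes were −0.027 for Kcnc1, 0.012 for Kcnc2 and 0.051 for Kcns3.

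Pvalb, the calcium-binding protein that names these interneurons, measured 43.5, 41.5 and 42.8 CPM at 6 months and 17.5, 18.7 and 19.0 CPM at 16 months. All 16-month samples lay far below all 6-month samples, with a log2 fold change of −1.21 (95% interval −1.34 to −1.08) and an edgeR adjusted p of 1.49e-05. Pvalb counts per Kcnc1 count were 0.198 ± 0.00243 (SD, n = 3) at 6 months and 0.0834 ± 0.0113 (SD, n = 3) at 16 months. Per Kcnc2 count they went from 0.269 to 0.118, and per Kcns3 count from 4.30 to 1.87. In each ratio the ages did not overlap, and the exact permutation p was 0.1, the smallest this design allows. Pvalb CPM alone gave the same exact permutation p, so the ratios are no separate test of the channels.

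Summed over Kcnc1, Kcnc2 and Kcns3, the level was 384 ± 5.81 CPM in younger and 388 ± 15.8 CPM in older samples (SD, n = 3 each), with an exact permutation p of 0.7. Of the list of 18 PV interneuron markers, which contains these 3 channels, Pvalb was the 1 gene called without offsets. In the list 10 genes had a positive and 8 a negative log2 fold change, with a median of 0.0036. With the offsets Tac1 and Eya4 were lower as well (edgeR adjusted p 0.012 and 0.0362). Their log2 fold changes without offsets were −0.225 and −0.296. The summed level of that list was 838 to 852 CPM at 6 months and 816 to 817 CPM at 16 months. Kcnc1, Kcnc2 and Kcns3 are also expressed outside PV cells, and bulk counts hold the sum over all cells.

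**Figure D4:**
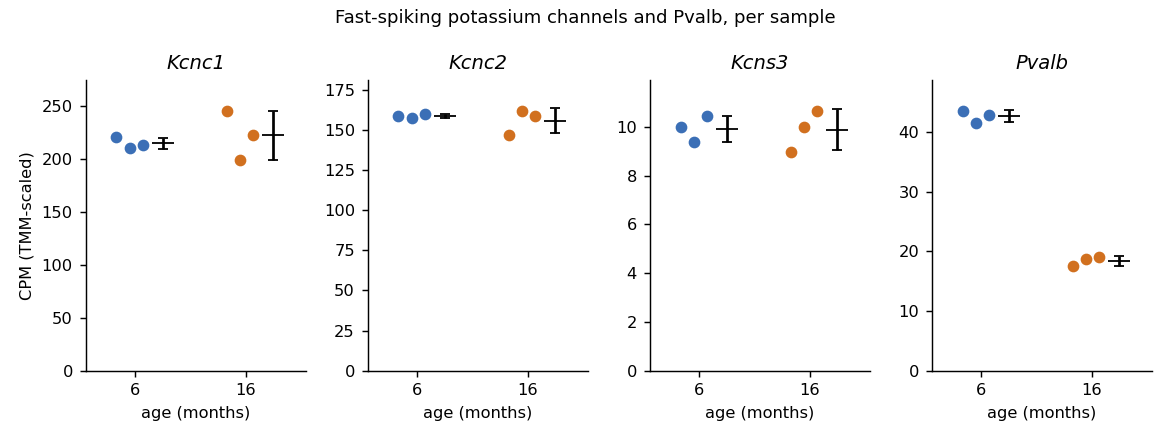
TMM-scaled CPM of Kcnc1, Kcnc2, Kcns3 and Pvalb in each of the 6 samples (points, y axes start at 0), with the mean and SD (bars, n = 3) by age in months. The 3 channel genes overlap between 6 and 16 months, whereas all 16-month Pvalb values (17.5 to 19.0 CPM) lie below the 6-month values (41.5 to 43.5 CPM).

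Kcnc4, a further pore subunit of the Kcnc subfamily, had a log2 fold change of 0.13, and none of the 4 Kcnc genes was separated between ages. It was highest in 16-month replicate 1, at 81.7 CPM, against 63.5 to 69.9 CPM in the other 5 samples. Per kilobase of merged exons, the scale used here to compare genes, Kcnc1 was at 22.7, Kcnc2 at 22.2, Kcnc4 at 17.9 and Kcns3 at 3.14 CPM per kb at 6 months. The difference between Kcnc1 and Kcnc2 was within the SD of Kcnc1.

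The remaining voltage-gated pore subunits leaned the same way as the whole set. Of 28 tested genes of this class, Kcnc1 and Kcnc2 included, 23 had a positive and 5 a negative log2 fold change, with a median of 0.092, and of 0.053 with the offsets. Kcnq3, a subunit of the channels of the M-current that restrains repetitive firing, measured 48.4, 45.7 and 43.0 CPM at 6 months and 59.2, 50.8 and 53.7 CPM at 16 months. All 16-month samples were above all 6-month samples. Kcnq3 had a log2 fold change of 0.25 (SE 0.071), with an adjusted p of 0.108 by edgeR's test without and 0.0322 with the offsets.

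Kcnh8, a channel of the Elk group, had the largest positive log2 fold change of the members at 0.63, but from 11 to 25 counts per sample. Its edgeR adjusted p was 0.256, and the values of the ages overlapped. Kcnd2, the pore of the dendritic A-type current, measured 96.6, 95.4 and 95.2 CPM at 6 months and 101.2, 112.4 and 102.3 CPM at 16 months. These groups did not overlap, and the log2 fold change of 0.14 passed with the offsets (edgeR adjusted p 0.0109) but not without them (0.246). Kcna1, the axonal delayed rectifier, was the most abundant voltage-gated pore gene per length, at 58.0 CPM per kb at 6 months and 60.4 CPM per kb at 16 months. Kcnh3, another Elk channel, was the most abundant Kcnh gene per length and had a log2 fold change of 0.083.

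The modulatory subunits, which form no functional channel alone and assemble with Kcnb subunits, gave the highest median of all classes. Of 9 tested genes of Kcnf, Kcng, Kcns and Kcnv, 7 had a positive log2 fold change (50.3% of all genes), 5 did not overlap between ages and were higher at 16 months (12.2% of all genes), and the median was 0.20. Summed over all 10 genes of the class, the level was 88.2, 90.6 and 89.4 CPM per kb at 6 months and 97.9, 96.5 and 97.5 CPM per kb at 16 months. With the offsets 5 of the 9 rose, where 7.37% of all genes did, and the median was 0.18.

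All 4 Kcng genes had positive log2 fold changes, with a median of 0.35 that was 0.31 with the offsets. Kcng1 measured 25.2, 22.0 and 23.7 CPM at 6 months and 33.1, 26.7 and 31.1 CPM at 16 months. Its lowest older sample was above its highest younger sample. This was a log2 fold change of 0.36 (SE 0.086), with an adjusted p of 0.0766 by edgeR's test and 0.000912 with the offsets. In fits that use no offsets, leaving out 16-month replicate 1 or replicate 2 gave 0.29 or 0.44, with edgeR adjusted p of 0.0317 and 0.00355.

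Kcng4 measured 6.78, 7.10 and 6.60 CPM at 6 months and 9.80, 8.04 and 8.14 CPM at 16 months, again without overlap. This gave a log2 fold change of 0.35, with an edgeR adjusted p of 0.101 without and 0.0119 with the offsets. Kcng3 measured 4.29, 5.07 and 4.53 CPM at 6 months and 5.94, 5.26 and 8.05 CPM at 16 months. It had the second largest positive log2 fold change of the members, 0.49, and its edgeR adjusted p was 0.141 without and 0.0287 with the offsets. The high value of 16-month replicate 3 weighed on it: without that sample, and with no offsets, the log2 fold change was 0.29. Kcng2 was high in 16-month replicate 1 only, at 9.71 CPM against 5.10 to 6.27 CPM in the other 5 samples, and its log2 fold change of 0.28 was −0.024 without that replicate.

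Kcnf1, which also assembles with Kcnb subunits, measured 147.1, 148.5 and 147.1 CPM at 6 months and 177.7, 160.3 and 170.3 CPM at 16 months. The 6-month samples were almost equal and all 16-month samples lay above them. On the log2 scale the difference was 0.20 (SE 0.054), with an edgeR adjusted p of 0.100 without and 0.00239 with the offsets. Kcns2 measured 29.6, 29.3 and 28.7 CPM at 6 months and 32.2, 36.0 and 31.7 CPM at 16 months, also without overlap. Its log2 fold change of 0.19 had an edgeR adjusted p of 0.177 without and 0.0255 with the offsets. Kcns1 and Kcnv1, the remaining modulatory genes of higher level, had log2 fold changes of −0.054 and 0.0012, and the sign of Kcnv1 turned under upper-quartile scaling and other settings.

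Markers of regions outside the cortex were higher in the older samples as well. Of 14 tested thalamus markers 7 rose, with a median log2 fold change of 0.32 and a summed level of 320 to 329 CPM at 6 months and 350 to 387 CPM at 16 months. Shox2, the thalamic transcription factor, went from 0.105 to 1.74 CPM. Of 11 dentate gyrus markers 4 rose (summed level 380 to 388 CPM, then 433 to 462 CPM), and of 12 striatum markers 2 rose (948 to 964 CPM, then 1049 to 1092 CPM). No marker of these lists was at 0 in any sample. Their part in the differences of the channel genes was not tested.

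The inward rectifiers held the member with the smallest p and a pair of astrocyte genes with opposite signs. Of 13 tested Kcnj genes, 7 had a positive and 6 a negative log2 fold change, with a median of 0.051. Kcnj6, a subunit of the channels opened by inhibitory G-protein-coupled receptors, measured 32.2, 29.9 and 29.7 CPM at 6 months and 35.6, 35.7 and 37.2 CPM at 16 months. The older samples were close together and above all younger ones. Kcnj6 thus had a log2 fold change of 0.24 (SE 0.058), with an edgeR adjusted p of 0.0755 without and 0.00368 with the offsets. Its relatives Kcnj3 and Kcnj9, subunits of the same channels, had log2 fold changes of −0.017 and 0.051. Kcnj5, the remaining one, was at 11 to 34 counts per sample, with a log2 fold change of −0.36 and overlapping ages.

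Kcnj10, the potassium-buffering channel of astrocytes, measured 238.6, 222.7 and 230.8 CPM at 6 months and 264.2, 257.5 and 260.8 CPM at 16 months. Again no older sample fell within the range of the younger ones. The log2 fold change was 0.18 (SE 0.050), with an edgeR adjusted p of 0.111 without and 0.00515 with the offsets. Kcnj16, which forms mixed channels with Kcnj10, measured 43.7, 45.0 and 42.9 CPM at 6 months and 34.7, 43.0 and 36.7 CPM at 16 months. Its highest older sample, replicate 2, just exceeded the lowest younger one, and the other 2 older samples were lower. The log2 fold change was −0.20, with an edgeR adjusted p of 0.219 without and 0.0146 with the offsets.

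Kcnj10 counts per Kcnj16 count were 5.26 ± 0.278 (SD, n = 3) at 6 months and 6.90 ± 0.833 (SD, n = 3) at 16 months. The older samples gave 7.62, 5.99 and 7.11 and the younger ones 5.46, 4.94 and 5.37, so the ages did not overlap, with an exact permutation p of 0.1. Among the 12 astrocyte markers 0 rose and 1, Gfap, fell without the offsets, with a median log2 fold change of 0.12. Their summed level was 8491 to 8901 CPM at 6 months and 9035 to 9777 CPM at 16 months. With the offsets Slc1a3, Aldh1l1, Gja1, Gjb6 and S1pr1 were higher (log2 fold changes 0.19 to 0.25, edgeR adjusted p 0.000364 to 0.00291). Gfap and Fgfr3 were lower in that fit (edgeR adjusted p 1.88e-07 and 0.00453), and the other markers did not pass. The part of astrocyte content in the Kcnj10 and Kcnj16 values was not tested.

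Kcnj12, a strong inward rectifier, measured 11.2, 10.2 and 11.7 CPM at 6 months and 13.4, 12.7 and 12.6 CPM at 16 months. The ages did not overlap, and the log2 fold change of 0.22 had an edgeR adjusted p of 0.167 without and 0.0412 with the offsets. Kcnj14 had a log2 fold change of −0.36 from 19 to 41 counts per sample, and shares near-identical sequence with the annotated gene Gm5522, so its counts are uncertain. Kcnj8, the ATP-sensitive channel of pericytes, measured 2.47 to 3.10 CPM at 6 months and 2.43 to 2.74 CPM at 16 months, with a log2 fold change of −0.11. The 13 vessel-cell markers held 0 called genes, with a summed level of 303 to 312 CPM and then 290 to 298 CPM.

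Kcnj13, which is expressed in choroid plexus, was at 0.597 to 0.700 CPM at 6 months and 0.527 to 0.670 CPM at 16 months, with a log2 fold change of −0.032. Its exons overlap Gigyf2 on the opposite strand over 49.1% of their length, and the strand setting of the counting is not given in the sources used here. Kcne2, a beta subunit of the same epithelium, had 3 to 12 counts per sample and was not tested. Among 9 tested choroid plexus markers 1, Ttr, rose, and the summed level of the list was 21.4 to 22.7 CPM at 6 months and 30.3 to 34.4 CPM at 16 months.

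Auxiliary subunits and regulators showed small differences with 1 exception at low count. Of 13 tested genes, 10 had a positive log2 fold change and the median was 0.087. Kcnmb1, the beta subunit of the large-conductance calcium-activated channel in smooth muscle, measured 0.896, 1.13 and 1.03 CPM at 6 months and 0.634, 0.542 and 0.673 CPM at 16 months. Every older sample was below every younger one, from 34 to 43 counts at 6 months and 17 to 23 at 16 months. Its log2 fold change of −0.70 (SE 0.20) was the most negative of the members, with an edgeR adjusted p of 0.114 without and 0.0393 with the offsets. Acta2 and Myh11, smooth muscle markers of the vessel list, had log2 fold changes of −0.082 and −0.18.

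Kcnab2, the beta subunit of Kcna channels, was the most abundant member per length, at 82.3 ± 4.18 CPM per kb (SD, n = 3) at 6 months and 85.6 ± 8.96 CPM per kb (SD, n = 3) at 16 months. Its log2 fold change was 0.056. Kcnip2, a calcium-binding partner of Kcnd channels, had one of 0.087, and Kcnmb4, the neuronal beta subunit of the large-conductance channel, one of 0.039. Kcnip4, of the same group as Kcnip2, and Kcnab1, of the same group as Kcnab2, rose with the offsets, with log2 fold changes of 0.17 and 0.14 and edgeR adjusted p of 0.00676 and 0.00612. Kcne1l and Kcnrg, both at low counts, had log2 fold changes of 0.22 and 0.27 with ages that overlapped.

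The 2-pore-domain channels, which carry the leak current at rest, held 10 tested genes, of which 8 had a positive log2 fold change with a median of 0.067. Kcnk1 was the most abundant per length, at 48.4 and 51.7 CPM per kb, and measured 106.2, 107.5 and 110.7 CPM at 6 months and 117.6, 115.9 and 112.8 CPM at 16 months. These values did not overlap, and the log2 fold change of 0.094 had an edgeR adjusted p of 0.360. Kcnk12, the member with the highest GC content (69.4%), was at 14.6 CPM in 16-month replicate 1 and between 8.07 and 8.96 CPM in the other 5 samples, and its log2 fold change of 0.33 was 0.022 without that library. With the offsets it was 0.31, with an edgeR adjusted p of 0.0746. Kcnk13, which is expressed in microglia, had a log2 fold change of −0.014, and 2 of the 12 microglia markers fell.

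The calcium- and sodium-activated channels held Kcnt1, the abundant member with the smallest adjusted p on the lower side with the offsets. Of 7 tested genes of the class, 4 had a positive log2 fold change, with a median of 0.064. Summed over all 8 genes of the class, the level was 49.0 ± 1.10 CPM per kb (SD, n = 3) at 6 months and 46.9 ± 0.464 CPM per kb (SD, n = 3) at 16 months. Each of the other 5 classes had a higher mean at 16 months. Within the class, Kcnt (27.5, then 24.1 CPM per kb) and Kcnu (1.26, then 1.13) were lower. Kcnn (12.6, then 13.3) and Kcnma (7.63, then 8.32) were higher. Kcnt1, a sodium-activated channel, measured 163.1, 154.0 and 162.6 CPM at 6 months and 156.1, 126.4 and 134.7 CPM at 16 months. Replicate 1 at 16 months lay within the range of the younger samples and the other 2 below it. Kcnt1 had a log2 fold change of −0.20 (SE 0.076), with an edgeR adjusted p of 0.210, and −0.25 with an adjusted p of 0.000307 with the offsets, the smallest adjusted p of all members in that fit.

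Kcnt2, the other sodium-activated channel, measured 65.9, 77.6 and 77.8 CPM at 6 months and 51.3, 79.2 and 65.7 CPM at 16 months, with overlapping ages and a log2 fold change of −0.17. Kcnma1, the pore of the large-conductance calcium-activated channel, measured 130.7, 129.2 and 128.6 CPM at 6 months and 132.9, 144.1 and 146.9 CPM at 16 months. All older samples were above the younger ones, with a log2 fold change of 0.13 and an edgeR adjusted p of 0.273. Kcnn2, the small-conductance channel of the afterhyperpolarisation, had a log2 fold change of 0.064 and Kcnu1 one of −0.17. Kcnn4, a channel of blood and immune cells, had 1 to 13 counts per sample and was not tested.

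By level, all 94 members summed to 964 ± 13.2 CPM per kb (SD, n = 3) at 6 months and 1014 ± 32.6 CPM per kb (SD, n = 3) at 16 months. Averaged over both ages, the order of the leading genes was Kcnab2, Kcna1, Kcnk1, Kcnj10, Kcnip2 and Kcnip3. At 6 months Kcnip2 stood at 40.9 ± 0.146 and Kcnip3 at 38.8 ± 0.832 CPM per kb (SD, n = 3 each). Voltage-gated pore subunits made up 35.4% of the summed level at 6 months and 35.3% at 16 months. By subfamily, Kcnj led with 169 ± 1.75 and 181 ± 3.36 CPM per kb, and Kcnc stood at 83.6 ± 1.98 and 87.4 ± 6.11 CPM per kb (SD, n = 3 each). The 14 members that were not tested had at most 13 counts in any sample, 6 of them at most 3, and Kcnj1, the renal channel, had 0 in all 6 samples.

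**Figure D5:**
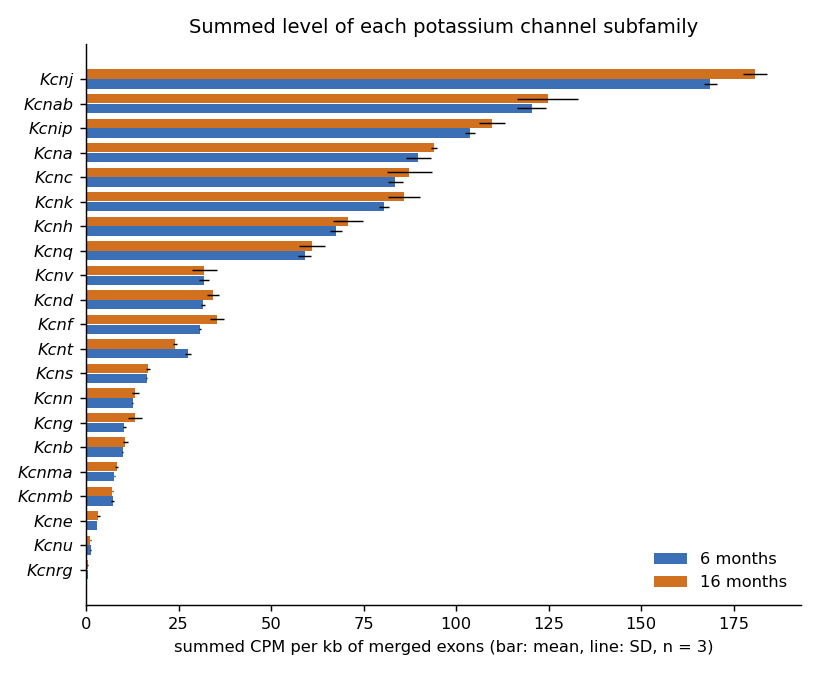
Summed CPM per kb of merged exons of all members of each of 21 subfamilies, untested ones included, (bar: mean, line: SD, n = 3) at 6 and 16 months. The Kcnj subfamily is highest and its bar is longer at 16 months (169 against 181 CPM per kb), as are those of Kcnf (30.8 against 35.4 CPM per kb) and Kcng (10.3 against 13.3 CPM per kb), whereas Kcnt is lower at 16 months (27.5 against 24.1 CPM per kb).

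Proteins that bind, anchor or work with potassium channels were summarised from a list of 42 genes without a Kcn symbol, of which 41 were tested. In the list 1 gene rose and 0 fell by edgeR's test, 29 had a positive log2 fold change and the median was 0.058. The gene that rose was Dpp6, a membrane protein that joins the Kcnd channels and speeds the A-type current. It measured 200.7, 195.7 and 194.6 CPM at 6 months and 251.4, 230.3 and 236.2 CPM at 16 months. The ages did not overlap, and the log2 fold change was 0.28 (SE 0.053) with an edgeR adjusted p of 0.0297. Dpp6 rose without offsets, and Kcnd2 and Kcnip4, which assemble with it, passed only with them. No other gene of the 3 tested in Kcnd and the 4 tested in Kcnip passed with the offsets. Dpp10, of the same list as Dpp6, had a log2 fold change of −0.079, and of −0.034 with the offsets. Whether these genes differ from each other was not tested.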

How the data were processed

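PolyA RNA of cortical hemispheres from C57BL/6 mice of 6 and 16 months (3 samples each, from separate brains per the study) was prepared with a TruSeq kit and sequenced in pairs of reads. The authors aligned reads to mm10 with STAR and deposited raw counts per Ensembl gene. The methods name HTSeq for counting, whereas the submitters' processing notes list CASAVA 1.8.2, STAR 2.3.0e and featureCounts 1.5.0-p1. The annotation release and the strand setting are not given in the sources used here.

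Summary rows that name no gene were dropped, and 36602 of 38355 identifiers matched GENCODE M21. Depth was 29797253 to 46519280 counts per sample, with TMM factors of 0.988 to 1.01. Ages were compared with edgeR 4.0.16 (R 4.3.3; filterByExpr, TMM, glmQLFit, glmQLFTest, no covariate, Benjamini-Hochberg adjustment, threshold 0.05), and the procedure was tested on simulated data. CPM are TMM-scaled, and levels between genes are CPM per kb of merged exons. GC and length offsets subtracted the median deviation of each sample in 20 bins of GC content and then of length. DESeq2 1.42.0, other scalings and filters, the replicate number as a block, and omission of each sample were alternatives. A fit without 16-month replicates 1 and 2, and counts of non-overlapping genes without single samples, were added after seeing the data. Single values were compared by an exact two-sided permutation test.

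Members and gene lists were chosen with earlier results of these data known. Named genes were the fast-spiking channels, the 10 with the smallest p, the 10 with the largest absolute log2 fold change, the most abundant per length in each subfamily, 7 genes with a known source outside neurons (Kcnj10, Kcnj16, Kcnj13, Kcne2, Kcnj8, Kcnk13, Kcnn4), and called partner genes. Kcnt2, Kcnc4, Kcnj3, Kcnj9, Kcnip3, Kcnip4, Kcnab1 and genes counted under an alternative were named after their values were seen. Some members that the rule names are not reported here. Exons of 28 members overlap another annotated gene.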

Additional observations from a re-analysis of the deposited data

How the results depend on the processing

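Against 286 genes and 0 potassium channel genes, calls numbered 648 and 2 (Kcng1, Kcng3) without a filter, 471 and 2 with DESeq2, 1 member (Kcng1) with DESeq2 without independent filtering, 2431 and 20 with GC and length offsets, and 1786 and 10 without 16-month replicates 1 and 2, a fit in which the lone older sample is assumed to vary like the younger ones. Leaving out 1 sample gave 48 to 2211 genes (0.277% to 12.7%) and 0 to 10 of 80 members. There were 9 without 16-month replicate 1 (11.2%, beside 5.73% of all genes) and 10 without replicate 2 (12.5%, beside 12.7%). Without any other sample there were 0. The cause was not tested. The deviations of same-numbered samples of the ages correlated with r = 0.18, 0.0958 and 0.0351. Only 16-month replicate 3 correlated slightly better with another number (r = 0.0379 with 6-month replicate 2). The labels give no pairing beyond the number, and whether same-numbered samples were handled together was not tested. A block on the number let 783 genes (4.57%) and 4 members (Kcng1, Kcng4, Kcnj6, Kcnq3) pass. The replicate block with offsets let 3322 genes (19.4%) and 25 members (31.2%) pass.

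Signs turned for log2 fold changes under 0.1 in size and for Kcng2 (0.28). With offsets, and with offsets and block, log2 fold changes were −0.0024 and −0.0023 for Kcnc1, and 0.027 and 0.023 for Kcnj13. Without 16-month replicates 1 and 2 they were −0.0057 for Kcnn2 and 0.093 for Kcns3. Kcnv1 gave −0.013 with upper-quartile scaling, which is also the Kcnv median, −0.0031 without a filter, −0.00037 with at least 10 counts in every sample and −0.0039 with the block. Over the fits that left out 1 sample, the ranges that crossed 0 were −0.028 to 0.12 for Kcnab2, −0.027 to 0.12 for Kcnc1, −0.055 to 0.012 for Kcnc2, −0.024 to 0.46 for Kcng2, −0.056 to 0.19 for Kcnh3, −0.089 to 0.076 for Kcnj13, −0.075 to 0.032 for Kcnk13, −0.022 to 0.092 for Kcnmb4, −0.16 to 0.022 for Kcns1, −0.070 to 0.051 for Kcns3 and −0.077 to 0.077 for Kcnv1. The summed level of the fast-spiking channels differed by 4.60 CPM, by −1.84 CPM without TMM scaling and by −4.78 CPM with offsets, within the SD. Of 592 values of single genes under alternatives, 504 kept their sign and side of the threshold, 60 came under it and 28 changed sign. Depth limits the members of low count: Kcnh8, Kcnj5 and Kcnmb1, at 11 to 43 counts per sample, had standard errors of 0.26, 0.28 and 0.20.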
